A study of Mus musculus with 12 samples.

Results

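Genes that handle arginine and its products were examined in macrophages given red blood cells (RBC), by taking every probe set listed for Slc7a2, Arg1, Arg2, Nos2, Ass1, Asl, Odc1 and Sat1. These 8 genes had 10 probe sets. For 7 of the 8 a probe set was listed for that gene alone, and these 7 were among 19938 genes tested. Ass1 was covered by 2 probe sets that are also listed for Gm5424, a pseudogene, so the signals of the 2 cannot be told apart. Giving RBC raised Arg1 and Odc1 and lowered Slc7a2 and Ass1/Gm5424 in macrophages of chow-fed mice. In macrophages of mice on a high-fat diet, Arg1, Arg2, Slc7a2 and Ass1/Gm5424 were already lower before any RBC were given. There no change of Slc7a2 or Ass1/Gm5424 with RBC was called, and the differences of Ass1/Gm5424 were positive. No difference by the diet of the RBC donor was called.

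The cells were peritoneal macrophages, drawn into the abdominal cavity of C57BL/6 mice by thioglycollate, an irritant broth, and washed out with saline. Donors were put on a high-fat or a chow diet at 6 weeks of age and stayed on it for 12 weeks. High-fat macrophages were given high-fat RBC, chow RBC or no RBC, and chow macrophages were given high-fat RBC, chow RBC or no RBC, so that the cells could engulf them (erythrophagocytosis). Each of the 6 groups had 2 arrays, labelled as animals 1 and 2, and the labels do not give the sex of the mice, the number of RBC per macrophage or the time of contact. Whole-culture RNA was measured, so fewer cells of a type and less RNA per cell cannot be told apart.

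Arginine reaches the macrophage interior largely through cationic amino acid transporters, of which CAT2, the product of Slc7a2, is the inducible form. Arginases split it into urea and ornithine, and the inducible nitric oxide synthase encoded by Nos2 turns the same substrate into nitric oxide and citrulline, which argininosuccinate synthase (Ass1) and argininosuccinate lyase (Asl) build back into arginine. Ornithine decarboxylase (Odc1) commits ornithine to the polyamines, and the acetyltransferase encoded by Sat1 marks polyamines for export or breakdown. In mouse macrophages Nos2 is known for its induction by bacterial products and interferon gamma, and Arg1 for its induction by interleukin 4.

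All values are log2 signals, and a difference of 1 is a doubling. Levels of different genes were not set against each other, since each probe set has its own efficiency. Array medians lay between 4.84 and 4.96. The mean level of 10 macrophage markers was 9.0 to 9.54 on the 12 arrays, and the files hold no detection call for any of them. The 2 arrays of unexposed high-fat macrophages differed most (SD of their difference 0.24 over all genes, against 0.15 to 0.19 in the other groups). The threshold for a call was 0.05 for the limma p adjusted by Benjamini-Hochberg over all genes, and errors are standard errors (SE) of the limma estimates with n = 2 arrays per group. The comparisons with unexposed cells share the same 2 unexposed arrays within a donor diet.

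Transport came first in the pathway, and Slc7a2 separated the groups by donor diet and, in chow macrophages, by exposure. Its signal was 6.70 and 6.67 in high-fat macrophages with high-fat RBC, 6.63 and 6.60 with chow RBC and 6.57 and 6.67 without RBC. In chow macrophages it was 7.30 and 7.09 with high-fat RBC, 7.32 and 7.36 with chow RBC and 8.74 and 8.71 without RBC. All 6 high-fat arrays lay below all 6 chow arrays, and the unexposed chow macrophages stood above every other group. In chow macrophages Slc7a2 fell by 1.53 ± 0.10 with high-fat RBC (fold 2.89, adjusted p = 4.22e-07) and by 1.38 ± 0.10 with chow RBC (fold 2.61, adjusted p = 1.03e-06). High-fat macrophages showed differences of 0.06 with high-fat RBC (95% interval -0.15 to 0.27) and 0.00 with chow RBC (-0.21 to 0.21), neither called. The response of high-fat macrophages minus that of chow macrophages was 1.49 ± 0.12 (adjusted p = 5.07e-06), from responses of 0.03 and -1.46. Without RBC, Slc7a2 was lower in high-fat macrophages, with a difference from chow macrophages of -2.10 ± 0.10 (fold 4.30, adjusted p = 4.52e-09). The difference was -0.72 ± 0.10 with chow RBC (adjusted p = 0.000867) and -0.51 ± 0.10 with high-fat RBC (adjusted p = 0.0156). The last of these was no longer called when either array of high-fat macrophages with high-fat RBC or array 1 of chow macrophages with high-fat RBC was left out (adjusted p = 0.0988, 0.115 and 0.242), or when those 2 groups were fitted alone (0.0644).

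**Figure D1:**
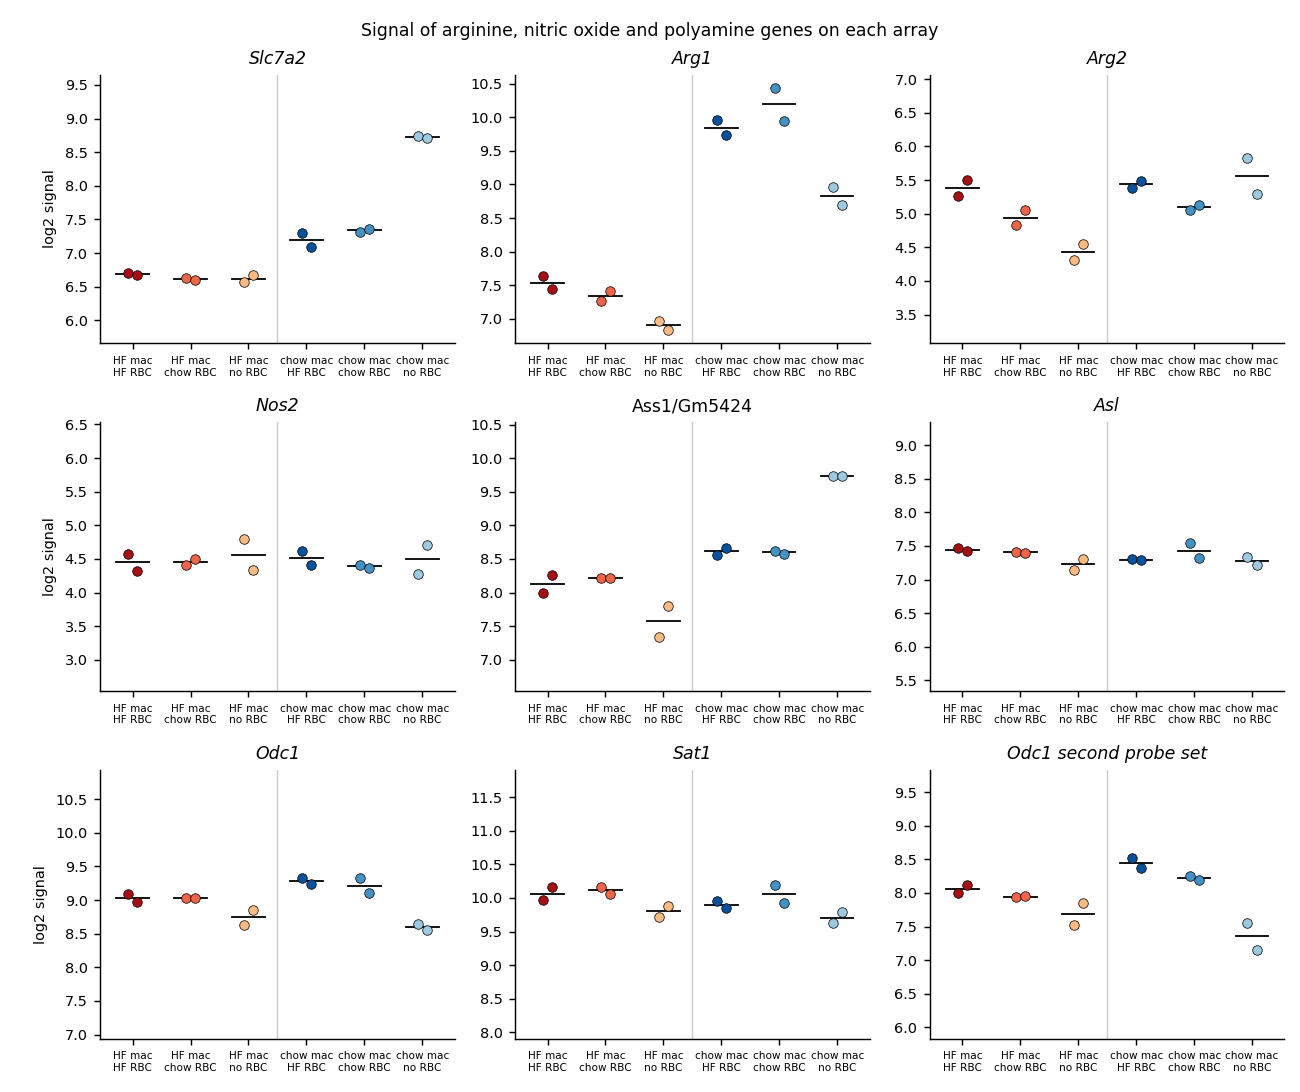
Log2 signal (vertical axis, same span in every panel) of each probe set on each of the 12 arrays, with high-fat (HF) macrophages left of chow macrophages (mac) and, within each, HF RBC, chow RBC and no RBC. Points are arrays and bars are means of 2 arrays; Arg1 lies between 6.83 and 7.64 on the HF macrophage arrays, below all chow macrophage arrays at 8.70 to 10.44.

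Arg1, the cytosolic arginase, was raised by RBC on top of a large difference between donor diets. The signal was 7.64 and 7.44 in high-fat macrophages with high-fat RBC, 7.26 and 7.41 with chow RBC and 6.98 and 6.83 without RBC. Chow macrophages had 9.95 and 9.74 with high-fat RBC, 10.44 and 9.94 with chow RBC and 8.96 and 8.70 without RBC. From high to low the groups were chow macrophages with chow RBC, with high-fat RBC and without RBC, then high-fat macrophages with high-fat RBC, with chow RBC and without RBC, and neighbours overlapped at the first step alone. Arg1 rose by 1.01 ± 0.15 in chow macrophages with high-fat RBC (fold 2.02, adjusted p = 0.000825) and by 1.36 ± 0.15 with chow RBC (fold 2.57, adjusted p = 7.47e-05). In high-fat macrophages both exposed pairs also lay above the unexposed pair, with differences of 0.63 ± 0.15 for high-fat RBC (adjusted p = 0.104) and 0.43 ± 0.15 for chow RBC (adjusted p = 0.348), neither called. The difference between the responses, -0.66 ± 0.19 (0.53 in high-fat and 1.19 in chow macrophages), was not called at adjusted p = 0.0608. That value lay between 0.0159 and 0.309 over the alternatives, 6 of which brought it under the threshold. The first of the high-fat differences was called under an intensity trend (0.0347) and without either array of chow macrophages with chow RBC (0.0493).

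Between donor diets Arg1 was lower in high-fat macrophages in every RBC condition. The difference was -2.31 ± 0.15 with high-fat RBC (fold 4.95, adjusted p = 1.5e-06), -2.86 ± 0.15 with chow RBC (fold 7.24, adjusted p = 1.37e-07) and -1.93 ± 0.15 without RBC (fold 3.80, adjusted p = 9e-07). No array of one diet reached the range of the other.

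Arg2, the mitochondrial arginase, responded differently in macrophages of the 2 diets. High-fat macrophages had signals of 5.26 and 5.50 with high-fat RBC, 4.83 and 5.05 with chow RBC and 4.31 and 4.56 without RBC. Chow macrophages had 5.38 and 5.49 with high-fat RBC, 5.06 and 5.13 with chow RBC and 5.83 and 5.29 without RBC. The unexposed high-fat macrophages were below all other groups. Their 2 signals lay under every array median (4.84 to 4.96), and whether they were above background is unknown. The unexposed chow macrophages, whose arrays differed by more than those of any other group, overlapped with both chow and high-fat macrophages given high-fat RBC. In high-fat macrophages Arg2 rose by 0.95 ± 0.16 with high-fat RBC (fold 1.93, adjusted p = 0.0102), and the difference with chow RBC was 0.51 ± 0.16 (adjusted p = 0.26). The first call was lost with array weights (0.0534), in a fit to those 2 groups alone (0.0561), and without array 2 of the exposed group (0.144) or array 1 of the unexposed group (0.127). In chow macrophages the differences were -0.13 ± 0.16 with high-fat RBC (adjusted p = 0.68) and -0.47 ± 0.16 with chow RBC (adjusted p = 0.086). The second was called, at -0.74, without array 2 of the unexposed chow macrophages (adjusted p = 0.018). The responses, 0.73 in high-fat and -0.30 in chow macrophages, differed by 1.02 ± 0.19 (adjusted p = 0.00622), and this call held under all alternatives, with adjusted p between 0.00145 and 0.034. Without RBC Arg2 was lower in high-fat macrophages (-1.13 ± 0.16, fold 2.19, adjusted p = 0.000199), while with RBC the difference was -0.16 ± 0.16 for chow RBC (95% interval -0.50 to 0.19) and -0.06 ± 0.16 for high-fat RBC (-0.40 to 0.28).

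Nos2 showed no call in any comparison. High-fat macrophages had 4.58 and 4.32 with high-fat RBC, 4.41 and 4.50 with chow RBC and 4.79 and 4.33 without RBC. Chow macrophages had 4.62 and 4.41 with high-fat RBC, 4.41 and 4.36 with chow RBC and 4.28 and 4.71 without RBC. The 12 arrays spanned 0.51 log2 units just under the array medians, and every group overlapped with its neighbours in the order of means. RBC against none, averaged over both donor diets, gave -0.08 ± 0.10 (95% interval -0.29 to 0.14, adjusted p = 0.677), and high-fat against chow macrophages without RBC gave 0.06 ± 0.16 (-0.29 to 0.41, adjusted p = 0.871). The files hold no detection calls, so whether Nos2 was above background is unknown.

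Ass1 makes argininosuccinate from citrulline and aspartate, the first step of arginine recycling. The sequence just upstream of its start is shown because its shared probe sets had the largest difference between the responses of high-fat and chow macrophages among the 8 genes. The 250 bases before the RefSeq start of Ass1, at chr2:31470020-31470269 on the plus strand of GRCm38.p6, read 5′ to 3′ as follows, with capitals marking a CACGTG motif (E-box).
Ass1: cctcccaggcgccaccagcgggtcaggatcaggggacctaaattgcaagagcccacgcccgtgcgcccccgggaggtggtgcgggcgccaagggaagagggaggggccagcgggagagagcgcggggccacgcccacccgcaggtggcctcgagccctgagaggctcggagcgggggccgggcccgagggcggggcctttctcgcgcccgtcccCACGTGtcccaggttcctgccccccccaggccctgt
The first base of the motif lies 36 bases before the start, and 6.02% of 32851 mouse promoter windows of the same length hold it on either strand. Of these bases 75.6% are G or C, against a median of 52.4% over all windows. None of the other 7 motifs searched on both strands matched, so no matches overlap. They were kappaB (in 7.25% of windows), GAAANNGAA (ISRE, 7.13%), TTCNNNGAA (GAS, 7.02%), TTGCNNAA (C/EBP, 9.56%), TGANTCA (AP-1, 6.75%), TGACGTCA (CRE, 1.55%) and TGATGNAA (ATF4 element, 3.45%). A match is a description of letters and says nothing on binding.

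The 2 Ass1/Gm5424 probe sets followed each other almost exactly (Pearson r = 1.00 over 12 arrays), so values of 1 of them, 10471154, are given. High-fat macrophages had 7.99 and 8.26 with high-fat RBC, 8.22 and 8.21 with chow RBC and 7.34 and 7.81 without RBC. Chow macrophages had 8.56 and 8.66 with high-fat RBC, 8.61 and 8.58 with chow RBC and 9.73 on both arrays without RBC. As with Slc7a2, the 6 high-fat arrays lay below the 6 chow arrays and the unexposed chow macrophages stood highest. The signal fell in chow macrophages by 1.12 ± 0.14 with high-fat RBC (fold 2.17, adjusted p = 0.00203) and by 1.13 ± 0.14 with chow RBC (fold 2.19, adjusted p = 0.00159), adjusted over the 1621 probe sets of several symbols. In high-fat macrophages the differences were positive but not called, at 0.55 ± 0.14 for high-fat RBC (adjusted p = 0.203) and 0.64 ± 0.14 for chow RBC (adjusted p = 0.096). Both were called without array 2 of the unexposed high-fat macrophages, at 0.78 and 0.87 (adjusted p = 0.0159 and 0.00826). The responses differed by 1.72 ± 0.17 (adjusted p = 0.000696), from 0.60 in high-fat and -1.13 in chow macrophages. Without RBC the signal was lower in high-fat macrophages, at -2.16 ± 0.14 against chow macrophages (fold 4.46, adjusted p = 9e-06). With RBC the difference was -0.38 ± 0.14 for chow RBC (adjusted p = 0.293) and -0.49 ± 0.14 for high-fat RBC (adjusted p = 0.131). The second passed without either array of the unexposed high-fat macrophages (0.0368), which are in neither compared group.

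Asl, which releases arginine from argininosuccinate, spanned 0.39 log2 units over all arrays. Its signal was 7.46 and 7.43 in high-fat macrophages with high-fat RBC, 7.41 and 7.40 with chow RBC and 7.15 and 7.31 without RBC. Chow macrophages had 7.30 and 7.29 with high-fat RBC, 7.54 and 7.31 with chow RBC and 7.34 and 7.21 without RBC. The exposed high-fat arrays lay above the unexposed ones, whereas the chow groups overlapped. Averaged over both donor diets, RBC against none gave 0.14 ± 0.06 (adjusted p = 0.196), and no comparison was called.

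Odc1 makes putrescine from ornithine and is the first step of polyamine synthesis. Its upstream window is printed because Odc1 was called in both exposures of chow macrophages. The window lies at chr12:17544623-17544872 on the plus strand of GRCm38.p6 (RefSeq), 80.0% of its bases are G or C, and it holds none of the 8 motifs, so it has no capitals.
Odc1: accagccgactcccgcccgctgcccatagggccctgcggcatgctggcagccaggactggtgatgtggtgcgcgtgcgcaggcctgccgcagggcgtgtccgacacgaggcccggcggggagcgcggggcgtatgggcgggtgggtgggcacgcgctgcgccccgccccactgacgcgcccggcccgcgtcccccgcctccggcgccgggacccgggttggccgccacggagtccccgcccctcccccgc

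The brighter of 2 Odc1 probe sets had signals of 9.09 and 8.97 in high-fat macrophages with high-fat RBC, 9.04 on both arrays with chow RBC and 8.64 and 8.85 without RBC. In chow macrophages it had 9.32 and 9.24 with high-fat RBC, 9.33 and 9.11 with chow RBC and 8.64 and 8.55 without RBC. All 8 exposed arrays lay above all 4 unexposed arrays. Averaged over both donor diets Odc1 rose by 0.47 ± 0.07 (fold 1.39, adjusted p = 0.000675). In chow macrophages it rose by 0.68 ± 0.11 with high-fat RBC (adjusted p = 0.00133) and by 0.62 ± 0.11 with chow RBC (adjusted p = 0.00281), and in high-fat macrophages the difference was 0.29 ± 0.11 with either RBC (adjusted p = 0.437 for high-fat and 0.376 for chow RBC). The dimmer probe set moved the same way, with a rise of 0.65 ± 0.08 on average (adjusted p = 0.000462 over 21789 probe sets, of which 4.75% were called higher). The 2 probe sets disagreed on the difference between the responses, which was -0.36 ± 0.13 for the brighter (adjusted p = 0.164) and -0.66 ± 0.17 for the dimmer (adjusted p = 0.0393, where 2.87% of those probe sets were called in that direction). Donor diet gave no call for Odc1 in any RBC condition.

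Sat1, the polyamine acetyltransferase gene, rose by 0.28 ± 0.07 with RBC averaged over both donor diets (fold 1.21, adjusted p = 0.0334). High-fat macrophages had 9.96 and 10.16 with high-fat RBC, 10.17 and 10.06 with chow RBC and 9.72 and 9.88 without RBC. Chow macrophages had 9.95 and 9.86 with high-fat RBC, 10.19 and 9.92 with chow RBC and 9.63 and 9.79 without RBC. Exposed arrays lay above unexposed arrays of the same donor diet in each of the 4 comparisons, with differences of 0.19 to 0.35, none of which was called alone. The averaged call was lost with array weights (0.0558) and when any 1 of 8 arrays was left out (adjusted p between 0.056 and 0.135). Neither donor diet nor its interaction with exposure was called.

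Across the members, the averaged exposure comparison called 4 of the 7 genes with a probe set of their own, 3 higher (Arg1, Odc1, Sat1) and 1 lower (Slc7a2), where 7.42% of all genes were called, 5.23% higher and 2.2% lower. The median difference of the 7 was 0.21, against -0.02 over all genes. In high-fat macrophages 1 of 7 was called with high-fat RBC (Arg2, higher), where 0.752% of all genes were called and 0.647% higher, and 0 of 7 with chow RBC, where 0.647% were called. With chow RBC, limma gave unadjusted p below 0.05 for 4 of the 7 in high-fat macrophages, which were Arg1, Arg2, Odc1 and Sat1, all positive, where 9.65% of all genes had one. In chow macrophages 3 of 7 were called with high-fat RBC, where 8.34% of all genes were called (5.41% higher, 2.93% lower), and 3 of 7 with chow RBC, where 9.18% were called (6.23% higher, 2.94% lower). The 3 were Arg1 and Odc1, higher, and Slc7a2, lower, in each case. Both Ass1/Gm5424 probe sets were called lower in these last comparisons, where 1.17% (high-fat RBC) and 1.67% (chow RBC) of the probe sets of several symbols were called lower.

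**Figure D2:**
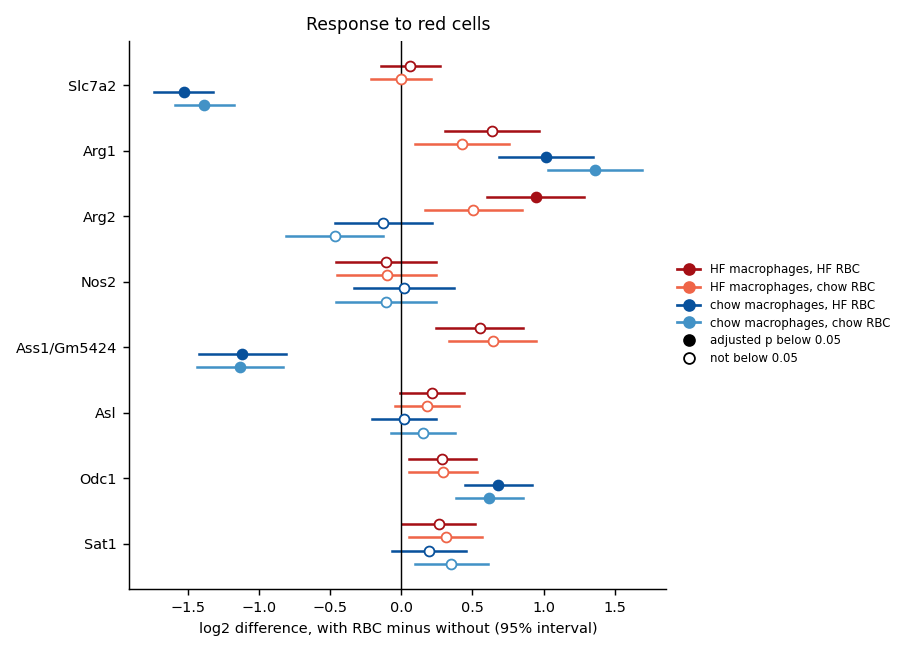
Log2 difference between macrophages with and without RBC (horizontal axis) for each gene, with its 95% interval; rows run from HF macrophages with HF RBC to chow macrophages with chow RBC, and filled points are called. Slc7a2 lies at 0.06 and 0.00 in HF macrophages, against -1.53 and -1.38 in chow macrophages, and Ass1/Gm5424 (probe set 10471154) at 0.55 and 0.64, against -1.12 and -1.13.

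Exposure changed markers of other cells too, and the part of those cells in the results above was not tested. Of 10 neutrophil markers 5 rose and 1 fell in the averaged comparison, where 5.23% of all genes were called higher and 2.2% lower. The largest rise was that of S100a9, by 5.76 ± 0.09, and Mmp9 fell by 0.27 ± 0.07. The mean level of the 10 was 6.40 to 6.43, 6.07 to 6.16, 6.30 to 6.43 and 6.29 to 6.38 in the 4 exposed groups. It was 5.13 to 5.20 in unexposed high-fat and 5.42 to 5.45 in unexposed chow macrophages. Of 7 measured platelet markers 4 rose, Ppbp the most at 4.44 ± 0.18, and none fell. Their mean levels were 6.59 to 7.15 with RBC and 5.60 to 6.03 without. Of 7 measured erythroid markers 2 rose (Alas2 and Bpgm) and none fell. B cell markers fell with exposure in chow macrophages, as Slc7a2 and Ass1/Gm5424 did: 3 of 4 measured were called lower with high-fat RBC and 2 of 4 with chow RBC, and none in high-fat macrophages with either. Of the 10 macrophage markers 4 rose and 2 fell in the averaged comparison. In chow macrophages Adgre1, Csf1r and Timd4 were called lower with each RBC, and Mertk and Mrc1 higher. None of these was called in high-fat macrophages with either RBC. The neutrophil marker Mmp9 was likewise called lower in chow macrophages only, where the other called neutrophil markers rose. Of the macrophage markers, Cd14 and Fcgr1 were called higher in high-fat macrophages with each RBC, and in chow macrophages with neither. In high-fat macrophages Cd14 rose by 1.52 ± 0.14 with high-fat RBC and 1.31 ± 0.14 with chow RBC, and Fcgr1 by 0.82 ± 0.11 and 0.86 ± 0.11.

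The difference between the responses of high-fat and chow macrophages was called for 2 of 7 genes, Arg2 and Slc7a2, both more positive in high-fat macrophages, where 5.67% of all genes were called and 2.57% in that direction. Both Ass1/Gm5424 probe sets were called the same way (1.72), where 0.864% of such probe sets were. For Slc7a2 and Ass1/Gm5424 the chow response was a fall, called with each RBC. The mean high-fat response was 0.03 for Slc7a2 and 0.60 for Ass1/Gm5424 (probe set 10471154). That mean was not itself tested, and neither gene was called with either RBC alone in high-fat macrophages. Of 4 B cell markers 3 had called differences, all more positive in high-fat macrophages, and of 10 macrophage markers 5 were more positive and 1 more negative. Of 10 neutrophil markers 2 were more positive (S100a9 and Mmp9) and 1 more negative (Mmp8), and limma called 0 of 7 platelet markers, 3 of which had an unadjusted p below 0.05. Their part in the members' differences was not tested.

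**Figure D3:**
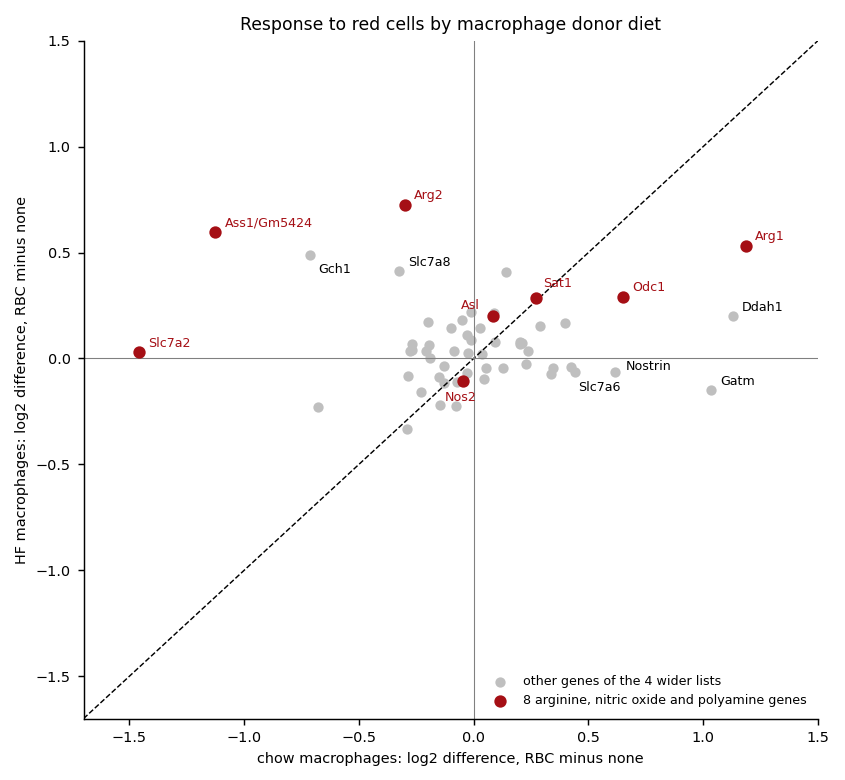
Mean response to RBC (log2 difference, both RBC diets averaged) in HF macrophages (vertical axis) against chow macrophages (horizontal axis), with a dashed line of equal response. The 8 genes are in red, and the genes of the wider lists in grey, named where their responses differed past the threshold; Arg2 lies at 0.73 in HF and -0.30 in chow macrophages.

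Donor diet of the macrophages was compared in each RBC condition. With high-fat RBC 2 of 7 genes were lower in high-fat macrophages (Arg1 and Slc7a2), where 1.36% of all genes were called and 0.903% lower, and with chow RBC the same 2 of 7, where 2.47% were called and 1.56% lower. Without RBC 3 of 7 were lower (Arg1, Arg2 and Slc7a2), where 13.9% of all genes were called and 5.82% lower, and none was higher in any condition. Both Ass1/Gm5424 probe sets were called lower without RBC, where 3.58% of such probe sets were. The median of the 7 without RBC was -0.05, against -0.01 over all genes, since Nos2, Asl, Odc1 and Sat1 lay between -0.05 and 0.15. Markers of other cells differed by donor diet as well. Without RBC 3 of 10 neutrophil markers were lower in high-fat macrophages (S100a9 at -0.73, Retnlg at -0.94 and Mmp9 at -1.18), as were 2 of 7 platelet markers (Pf4 at -1.30 and Ppbp at -1.14), and none of either list was higher. The erythroid markers Bpgm (0.75) and Fech (0.48), the fibroblast marker Col1a1 (0.50) and the eosinophil marker Siglecf (0.85) were called higher there. Ccr3, also an eosinophil marker, was lower without RBC (-0.65) and with chow RBC (-0.87). With chow RBC 2 neutrophil markers and Pf4 were lower, and with high-fat RBC 1 neutrophil marker was higher and 1 lower and Pf4 was lower. Of 4 B cell markers, 2 were lower with high-fat RBC, 3 with chow RBC and 4 without RBC. The mean level of B cell markers was 4.18 to 4.23 in high-fat macrophages with high-fat RBC, against 4.71 to 4.76 in chow macrophages with high-fat RBC. It was 4.08 to 4.18 against 5.01 to 5.04 with chow RBC, and 4.02 to 4.15 against 5.38 to 5.57 without RBC. Of the 10 macrophage markers, 5 were lower and 2 higher in unexposed high-fat than in unexposed chow macrophages, with mean levels of at most 9.03 in unexposed high-fat and 9.48 to 9.49 in unexposed chow macrophages. The part of these shifts in the members' differences was not tested.

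**Figure D4:**
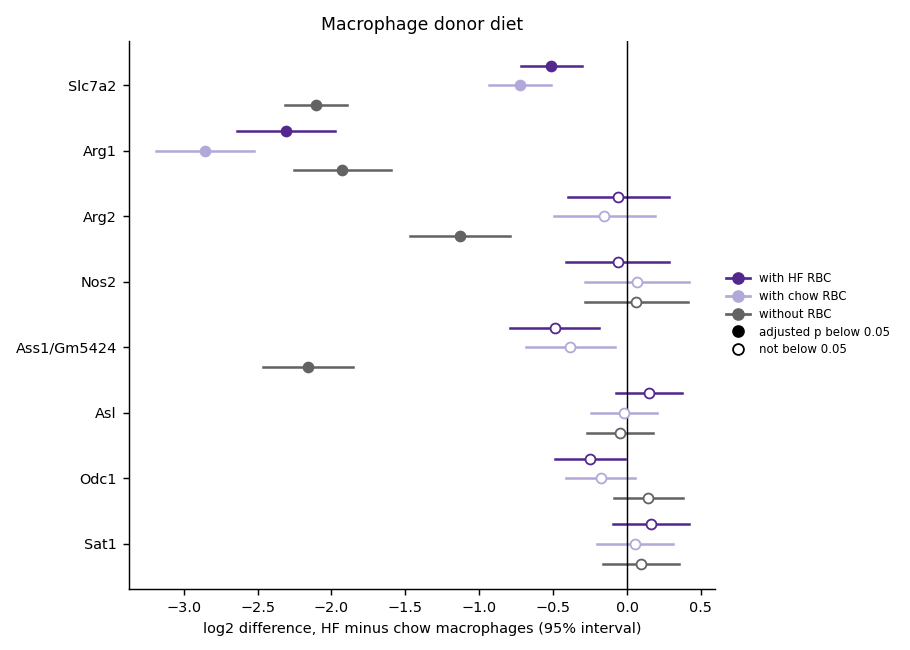
Log2 difference between HF and chow macrophages (horizontal axis) for each gene with its 95% interval, with HF RBC, chow RBC and no RBC from top to bottom in each row; filled points are called. Arg1 lies between -2.86 and -1.93 in all 3 conditions, whereas Ass1/Gm5424 (probe set 10471154) lies at -0.49, -0.38 and -2.16.

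Whether RBC of high-fat-fed mice act differently from chow RBC was asked in both kinds of macrophage. No member was called: 0 of 7 on average, where 0.01% of all genes were called, 0 of 7 in high-fat macrophages, where 0.0251% were called, and 0 of 7 in chow macrophages and in the interaction, where 0% were called. At an unadjusted limma p below 0.05 there were 1 of 7 on average and in high-fat macrophages (Arg2), 2 of 7 in chow macrophages (Arg1 and Arg2) and 1 of 7 in the interaction (Arg1). Of all genes 3.15% had such a p on average, 3.96% in high-fat macrophages, 2.78% in chow macrophages and 3.6% in the interaction. Arg2 was 5.26 to 5.50 on the 4 arrays with high-fat RBC, against 4.83 to 5.13 on the 4 arrays with chow RBC, so the groups did not overlap. The difference was 0.39 ± 0.11 (95% interval 0.15 to 0.63, unadjusted p = 0.00382, adjusted p = 1.0), with 0.44 ± 0.16 in high-fat and 0.34 ± 0.16 in chow macrophages. Of 10 neutrophil markers 0 were called by limma in the same comparison and 6 had an unadjusted p below 0.05. S100a9 (0.56, unadjusted p = 7.05e-05), Cxcr2 (0.45, 0.000192), Retnlg (0.42, 0.00174), S100a8 (0.37, 0.00126) and Ly6g (0.30, 0.0244) had positive differences, and Ngp (-0.26, 0.0179) a negative one. Platelet and erythroid markers with such a limma p were all negative, and none was called. They were Alox12 (-0.66, unadjusted p = 0.000165), Ppbp (-0.73, 0.0038), Gp9 (-0.39, 0.0102) and Clec1b (-0.20, 0.0387) for platelets. For erythroid cells they were Alas2 (-0.89, 0.00013) and Bpgm (-0.24, 0.0294). The part of any of these cells in the Arg2 difference was not tested. For Arg1 the difference was 0.20 ± 0.15 in high-fat and -0.35 ± 0.15 in chow macrophages. Averaged 95% intervals of the other 5 genes lay within -0.28 and 0.31.

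Some other genes of arginine transport, nitric oxide and creatine metabolism changed with exposure in chow macrophages, where 8.34% (high-fat RBC) and 9.18% (chow RBC) of all genes were called, while in high-fat macrophages limma called 0 genes of the 4 wider lists with either RBC. At an unadjusted p below 0.05 high-fat macrophages had 1 of 8 transporter and 2 of 16 nitric oxide genes with high-fat RBC, where 8.73% of all genes had such a p. With chow RBC there were 3 of 8 transporter, 3 of 16 nitric oxide and 1 of 12 polyamine genes, where 9.65% of all genes had one. Of 8 transporter genes, 1 rose and 1 fell in chow macrophages with high-fat RBC, and 1 rose and 2 fell with chow RBC. Slc7a1, the constitutive cationic transporter, fell by 0.67 ± 0.12 with high-fat RBC and by 0.68 ± 0.12 with chow RBC, and Slc7a6, a light chain of an arginine exchanger, rose by 0.50 ± 0.10 and 0.39 ± 0.10. Of 16 genes of nitric oxide synthesis, cofactor supply and sensing, 3 rose and 1 fell with each RBC. Ddah1, which breaks down methylated arginines that block nitric oxide synthases, rose by 1.16 ± 0.12 with high-fat RBC (adjusted p = 3.48e-05) and by 1.10 ± 0.12 with chow RBC (adjusted p = 5.4e-05). Gch1, the first enzyme in making the synthases' cofactor tetrahydrobiopterin, fell by 0.83 ± 0.15 and 0.60 ± 0.15. Qdpr, which regenerates that cofactor, rose by 0.42 ± 0.11 and 0.38 ± 0.11, and Nostrin, a nitric oxide synthase trafficking factor, rose by 0.61 ± 0.12 and 0.62 ± 0.12.

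Arginine also feeds creatine synthesis, whose first enzyme is encoded by Gatm. Gatm rose in chow macrophages by 1.05 ± 0.10 with high-fat RBC (adjusted p = 1.53e-05) and by 1.02 ± 0.10 with chow RBC (adjusted p = 2.04e-05), and the responses of high-fat and chow macrophages differed by -1.18 ± 0.12 (adjusted p = 4.88e-05). Of 13 measured genes of the urea cycle, ornithine, proline, creatine and agmatine, 1 rose and 1 fell with high-fat RBC in chow macrophages, and 2 rose with chow RBC. Of 12 measured polyamine genes 1 rose with each, a share near that over all genes. It was Mtap, which salvages a by-product of polyamine synthesis, by 0.44 ± 0.11 and 0.41 ± 0.11. Averaged over donor diets, Srm, the spermidine synthase gene, rose by 0.22 ± 0.06 (adjusted p = 0.0452).

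Donor diet without RBC called 4 of 8 transporter genes, 4 of 16 nitric oxide genes, 3 of 13 urea cycle and creatine genes and 2 of 12 polyamine genes, where 13.9% of all genes were called. Slc7a8, a neutral amino acid transporter, was lower in high-fat macrophages (-1.28 ± 0.13, adjusted p = 1.37e-05), as were Slc7a1 (-0.69 ± 0.12) and Slc3a2, the shared heavy chain (-0.62 ± 0.10). Gch1 was also lower (-1.31 ± 0.15, adjusted p = 3.85e-05), and Ddah1 was higher by 1.38 ± 0.12 (adjusted p = 1.82e-06). Gatm and Gamt, the 2 enzymes of creatine synthesis, were higher by 0.80 ± 0.10 and 0.59 ± 0.11. With chow RBC 4 genes of the 4 lists were called, where 2.47% of all genes were. They were 1 of 8 transporter, 1 of 16 nitric oxide, 1 of 13 urea cycle and creatine and 1 of 12 polyamine genes. Slc7a8 (-0.57 ± 0.13) and Gatm (-0.41 ± 0.10) were lower in high-fat macrophages, and Ddah1 (0.63 ± 0.12) and Dhps (0.43 ± 0.09) were higher. The direction for Gatm was thus opposite to that without RBC. With high-fat RBC limma called 0, with unadjusted p below 0.05 for 3 of 8 transporter, 3 of 16 nitric oxide, 3 of 13 urea cycle and creatine and 2 of 12 polyamine genes, where 9.7% of all genes had one.

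Likeness between genes is given as Pearson r over the 12 arrays, which share group means and replicates, as a description with no test. Slc7a2 and Ass1/Gm5424 followed each other at r = 0.94, Arg2 and Ass1/Gm5424 at 0.75, Asl and Sat1 at 0.76 and Odc1 and Sat1 at 0.65. Arg1 was at 0.50 with Slc7a2 and 0.51 with Odc1. Among 1021 other genes with a range of at least 1, those closest to Slc7a2 were Tarm1, Abcc1 and Tmem267 (each 0.99). Arg1 was closest to C1qc (0.97), Dppa3 (0.97) and C5ar1 (0.96). Arg2 was closest to Slfn4 (0.915), Csf3r (0.91) and Irgm1 (0.88). Ass1/Gm5424 was closest to Gas7, Clec4e and Pvr (each 0.99). Odc1 was closest to Pde3b (0.96), Creb3l1 (0.94) and Pitpnc1 (0.94), and Sat1 to Slc39a10 (0.87), Mxi1 (0.82) and Ereg (0.82). For Asl the highest values were Ccnyl1 (0.81), Ift74 (0.78) and Bnip3 (0.77), and for Nos2, whose own range was small, Gm10024 (0.79), Pla2g2c (0.75) and Btnl5-ps (0.72).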

How the data were processed

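Each of 12 RNA samples, 2 in each of 6 groups set by the labels, was measured on 1 Affymetrix Mouse Gene 1.0 ST array. Per the labels' protocols RNA came from RNeasy columns, was amplified by WTA-Ovation FFPE V2 and got its label from an Encore biotin kit. The deposited values are on a log2 scale, as read from their range. The sources used here do not give how the authors summarized and normalized them. Raw intensities were not used, so the distance of a signal from background is unknown and precision rests on the number of arrays. Every value column was mapped to a sample.

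Of 35557 probe sets, 35556 had values and 21789 had 1 gene symbol. The brightest stood for each of 999 genes with several, which left 19938 genes, and no filter was set on low values. The 1621 probe sets of several symbols, Ass1/Gm5424 among them, were tested apart, and the second Odc1 probe set over all 21789. In R 4.3.3, limma 3.58.1 (lmFit, then eBayes) fitted the 6 group means to all arrays at once (6 residual and 7.69 prior degrees of freedom). There were 13 contrasts, each adjusted by Benjamini-Hochberg over its genes. P-values measure the spread between arrays, which the labels number as animals. The procedure was tested on simulated data.

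The 8 genes, the 4 wider lists and the marker lists were chosen with earlier results of these data known. All 8 are named in every comparison, with up to 4 called genes per wider list and comparison by smallest p, and the 3 most alike genes by Pearson r. Promoter windows are from RefSeq (GRCm38.p6), which gave 3 of the 8 genes a window. Those of Ass1 and Odc1 are printed, and the third is that of Sat1. The other genes were Arg1, Arg2, Nos2, Slc7a2 and Asl. Alternatives were quantile normalization, leaving out the dimmest 33.3% of genes, a trended prior with robust eBayes, weights per array, blocking on animal number, averaging of probe sets per gene, fits to only the groups compared, and leaving out 1 array at a time.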

Additional observations from a re-analysis of the deposited data

Results flagged for a closer look

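For the genes named here the response to RBC differed between high-fat and chow macrophages past the threshold, by the interaction term of limma (response of high-fat minus that of chow macrophages). Among the genes described above these were Arg2 (1.02 ± 0.19, adjusted p = 0.00622), Slc7a2 (1.49 ± 0.12, adjusted p = 5.07e-06), both Ass1/Gm5424 probe sets (1.72 ± 0.17, adjusted p = 0.000696, for 10471154 and 1.72 ± 0.18, adjusted p = 0.000941, for the other), and the second probe set of Odc1 (-0.66 ± 0.17, adjusted p = 0.0393). The brighter Odc1 probe set did not pass. These share the 4 unexposed arrays, and the unexposed chow macrophages are the highest group for Slc7a2, Arg2 and Ass1/Gm5424.

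Among the wider lists, Gch1 had responses of 0.49 in high-fat and -0.71 in chow macrophages (difference 1.20 ± 0.19, adjusted p = 0.00151), and Slc7a8 had 0.41 and -0.33 (0.74 ± 0.16, adjusted p = 0.0167). The differences ran the other way for Gatm, at -0.15 and 1.03 (-1.18 ± 0.12, adjusted p = 4.88e-05), and for Ddah1, at 0.20 and 1.13 (-0.93 ± 0.15, adjusted p = 0.00159). Nostrin had a difference of -0.68 ± 0.14 (adjusted p = 0.0123) and Slc7a6 one of -0.50 ± 0.13 (adjusted p = 0.0308).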

How the results depend on the processing

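The 28 called results of the 8 genes gave 208 values under other settings, of which 204 kept their call, and 336 with an array left out, of which 323 did. The 89 results that were not called gained 13 calls in 684 values under other settings and 13 in 1068 with an array left out. No called value changed sign, and uncalled values did so 7 times under other settings and 56 times with an array left out, most often for Nos2 (18) and Sat1 (12). An omitted array leaves 1 array in its group, which is then assumed to vary like the other groups. In high-fat macrophages with high-fat RBC, where 1 of 7 genes was called, there were 2 with an intensity trend, 0 with array weights, 0 in a fit to the compared groups and 0 to 2 with an array left out. For high-fat against chow macrophages with high-fat RBC, where 2 were called, there was 1 in a fit to the compared groups and 1 to 2 with an array left out. The causes were not tested. Without array 1 of the unexposed chow macrophages the averaged exposure difference of Arg2 was 0.35 (adjusted p = 0.0404), against 0.21 with all arrays. The averaged exposure difference of Ass1/Gm5424 (-0.25 and -0.26, not called) was called with quantile normalization over the 1621 probe sets (-0.44 and -0.42) and without array 1 of the unexposed high-fat macrophages (-0.37 and -0.38). Its positive difference in high-fat macrophages with chow RBC passed under an intensity trend (adjusted p = 0.0449 and 0.0403), as did that of Sat1 in chow macrophages with chow RBC (0.0333). The fit to the compared groups gives no other value where all groups are compared, and averaging of probe sets was not run for Ass1/Gm5424. The main fit did not pair arrays by animal number. Deviations of same-numbered arrays correlated between -0.23 and 0.34 over 15 pairs of groups, with 2 over 0.1. Both of these were among the 6 pairs within a donor diet. They were high-fat macrophages with high-fat RBC and without RBC (0.34), and chow macrophages with chow RBC and without RBC (0.14). Whether arrays of a donor diet were paired by animal is therefore not settled. As a replicate block over all groups the animal numbers kept 116 of 117 calls or non-calls and gained 1, the Arg1 interaction (0.0302). As a block within donor diet they kept 114 and gained 3, which were the Arg1 interaction (0.0173), Arg1 in high-fat macrophages with high-fat RBC (0.0267, so that 2 genes were called there) and Ass1/Gm5424 with chow RBC (0.0489).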

Other observations

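Of 9 genes listed as marks of alternative activation beside Arg1, 1 rose and 3 fell in chow macrophages with high-fat RBC and 1 rose and 2 fell with chow RBC, where 8.34% and 9.18% of all genes were called. In chow macrophages, where Arg1 rose, Retnla, a secreted resistin-like protein, fell by 0.97 ± 0.21 with high-fat RBC (limma, adjusted p = 0.00922) and by 1.03 ± 0.21 with chow RBC (adjusted p = 0.00617). Ccl24, a chemokine for eosinophils, fell by 0.53 ± 0.10 and 0.48 ± 0.10, and the mannose receptor gene Mrc1 rose by 0.58 ± 0.10 and 0.49 ± 0.10. Il4ra, the interleukin 4 receptor chain, fell by 0.34 ± 0.09 with high-fat RBC (adjusted p = 0.0341), and its difference with chow RBC was -0.30 ± 0.09 (adjusted p = 0.0607). In high-fat macrophages 2 of the 9 rose with each RBC and none fell, where 0.752% (high-fat RBC) and 0.647% (chow RBC) of all genes were called. These were Chil3, a chitinase-like protein, with rises of 1.21 ± 0.20 with high-fat RBC and 1.34 ± 0.20 with chow RBC, and Il4ra, with rises of 0.52 ± 0.09 and 0.48 ± 0.09.

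Between donor diets without RBC, 4 of the 9 were lower in high-fat macrophages, as Arg1 was, and 1 was higher, where 13.9% of all genes were called. The differences were -2.96 ± 0.21 for Retnla (adjusted p = 2.4e-07), -1.22 ± 0.09 for Il4ra (adjusted p = 5.79e-07) and -0.70 ± 0.10 for Ccl24, and Chil3 was lower by 1.00 ± 0.20, while Mrc1 was higher by 0.78 ± 0.10. Retnla was also lower in high-fat macrophages with RBC, at -1.83 ± 0.21 for high-fat RBC and -2.19 ± 0.21 for chow RBC.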
